A study of Mus musculus with 8 samples.

Results

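Gene expression in intestinal epithelial cells of mice carrying a stabilised form of β-catenin was compared with that of wild-type mice across all genes on the arrays. The comparison used 4 of the 8 arrays of the series: the 2 labelled bCATca (genotype β-catc.a.) and the 2 labelled WT (control mice). A gene was read from its brightest probe set with a single symbol, and 12393 genes could be measured. The other 4 arrays came from mice with the IKKα AA/AA genotype (IKK-AA) and from mice with both alterations (IKK-AA_bCATca), 2 arrays each, and they entered the fit only to share its estimate of the spread, except where named.

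The mice, whose background mixed C57BL/6, 129Sv and FVB, were given tamoxifen by gavage for 5 days in every group, the wild type included. Epithelial cells were taken on day 15 from the start of tamoxifen, and biotin-labelled RNA was made from 200 ng of input. The series' design text places the stabilisation in intestinal epithelial cells alone. The Cre driver, the altered part of the β-catenin gene, the segment of intestine, the age and sex of the mice, and whether an array stands for 1 animal are not given in the sources used here.

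β-catenin is the effector of canonical Wnt signalling. Without a Wnt signal a destruction complex marks it for degradation, and a form that escapes the complex accumulates and drives transcription with TCF/LEF factors in the nucleus. In the intestine this pathway keeps crypt cells dividing and undifferentiated, while cells that leave the crypt become absorptive enterocytes or secretory cells. Values below are log2 intensities, a change is the bCATca mean minus the WT mean with the standard error (SE) of the linear model, and n = 2 arrays per group. A gene is said to have risen or fallen where its Benjamini-Hochberg adjusted p from limma over all 12393 genes was under 0.05, also written as called.

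Ctnnb1, which encodes β-catenin, read between 11.96 and 12.37 on all 8 arrays, and RNA level does not report stabilisation of the protein. Of 14 epithelial markers, whose median change was 0.05, 1 was called, a share near that of all genes (9.29%): the simple-epithelium keratin Krt18, which read 10.74 and 10.97 in WT and 11.99 and 12.06 in bCATca. WT replicate 1 was the only array with the X-inactivation transcript Xist at a high reading, so the WT arrays were not repeats of 1 animal. The part of this difference between the WT arrays in the results was not tested. Xist read at most 4.03 on the other 7 arrays, and this value is used below as a rough guide to background; of 26 genes specific to other tissues, 7 had a mean above it. Hspa1a, an inducible heat shock protein singled out after its values were seen, read 8.39 on WT replicate 1 and 4.40, 4.94 and 4.55 on WT replicate 2 and the bCATca arrays. A control probe set for 18S ribosomal RNA read 10.1 and 10.7 in WT and 11.1 and 11.3 in bCATca, so it moved with the groups, and its part in the results was not tested.

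At an unadjusted p under 0.05, 2102 genes were higher and 1546 lower, 29.4% of all genes in either direction, and counts of list members at that threshold are to be read against these. After adjustment 1151 genes were called, 9.29% of those tested: 711 rose (5.74%) and 440 fell (3.55%). Counts of called genes in lists and families are to be read against these shares. The median change was 0.95 among genes that rose, -0.998 among those that fell and 0.01 over all genes. At least 2-fold changes were found for 325 genes that rose (2.62%) and 218 that fell (1.76%), with 25 and 19 genes past 8-fold. The arrays of the 2 groups did not overlap for 7840 genes (63.3%). The direction differed with the level of the gene. In 4 equal classes of genes by mean level, 176 rose and 188 fell in the brightest, whereas 258 rose and 99 fell in the next and 244 and 103 in the one after. In the dimmest class 33 rose and 50 fell, and 2.68% of genes were called. With cyclic loess normalisation the split was 560 higher to 520 lower, and with quantile normalisation 551 to 518, so the excess of increases over decreases depended on the scaling.

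**Figure D1:**
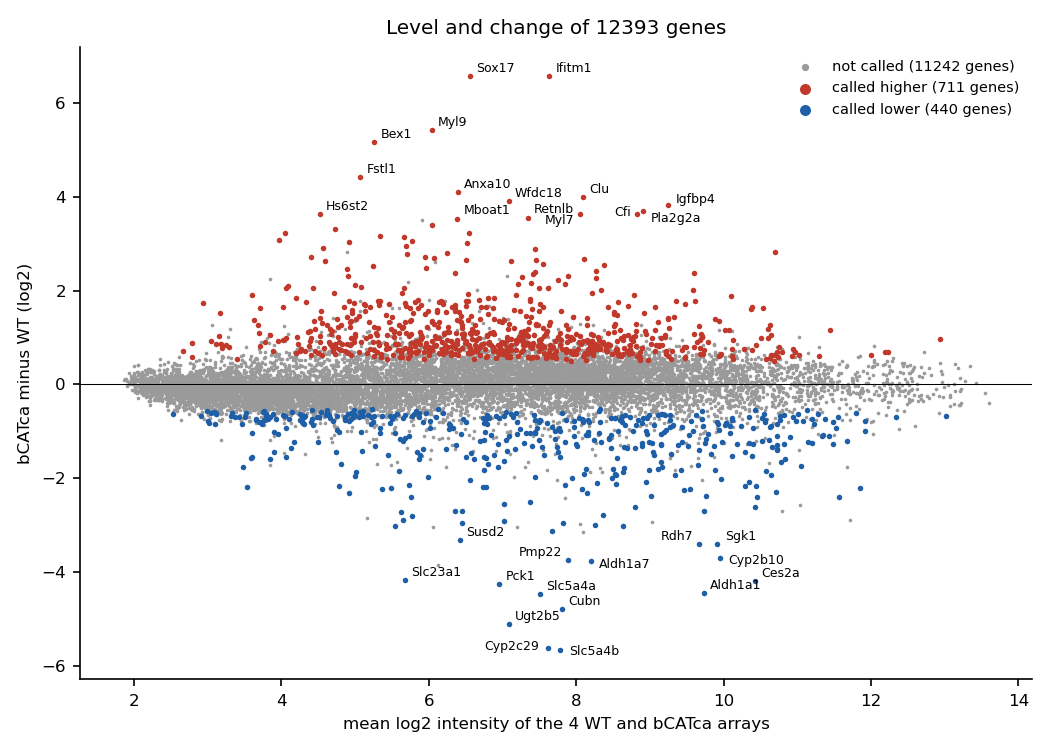
Each point is 1 of 12393 genes, placed by its mean log2 intensity over the 4 WT and bCATca arrays (x axis) and its log2 change, bCATca minus WT (y axis); 711 genes called higher are red, 440 called lower are blue, and the 15 largest changes in each direction are named. The named increases lie at low to upper medium mean levels and the named decreases reach further to the right, while no named gene lies beyond a mean of 12.

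Of the 100 genes with the highest WT level, 76 were also among the 100 highest in bCATca, and 7 of the 100 were called, against 9.29% of all genes. Apoa1, the main protein of high-density lipoprotein, read 13.84 and 13.76 in WT and 13.62 and 13.17 in bCATca, a change of -0.40 that was not called (adjusted p = 0.171). Fabp2, an intestinal fatty acid binding protein, fell by 0.66 (adjusted p = 0.0492), from 13.35 on both WT arrays to 12.89 and 12.47. Reg3g, an antibacterial lectin, rose by 0.97 (adjusted p = 0.0428), from 12.81 and 12.09 to 13.38 and 13.46. The calls of Fabp2 and Reg3g were lost when some single arrays were left out (adjusted p up to 0.245 for Fabp2 without bCATca replicate 2 and 0.216 for Reg3g without WT replicate 2).

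Of the 15 largest increases, the first 5 came from genes near or at background in WT. Sox17, an endodermal transcription factor, read 3.19 and 3.36 in WT and 9.65 and 10.05 in bCATca. Myl9, a regulatory light chain of smooth muscle and non-muscle myosin, read 3.39 and 3.26 in WT and 8.86 and 8.64 in bCATca. In both cases the WT arrays were under the background guide and the bCATca arrays were well above it, so the changes of 6.58 (SE 0.40, adjusted p = 0.000163) and 5.42 (SE 0.22, adjusted p = 5.09e-05) are differences of readings and not exact folds. Bex1, an adaptor protein of the nervous system, stood at 2.73 and 2.62 in WT against 7.77 and 7.91 in bCATca. Fstl1, a secreted follistatin-like glycoprotein, stood at 2.90 and 2.82 against 7.33 and 7.22. Ifitm1 read 4.58 and 4.11 in WT and 10.80 and 11.06 in bCATca, a change of 6.59 (SE 0.37), which is likewise no exact fold, since the WT readings were close to the guide.

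The other genes among the 15 were above the guide on all 4 arrays, Anxa10 only just so in WT, apart from Hs6st2, a heparan sulfate sulfotransferase at 2.71 and 2.70 in WT and 6.32 and 6.36 in bCATca. Clu, which encodes the secreted chaperone clusterin, read 5.94 and 6.23 in WT and 10.22 and 9.95 in bCATca (change 4.00, SE 0.35, 16-fold, adjusted p = 0.000862). Wfdc18, a small secreted protein of the whey acidic protein family, rose by 3.91, Igfbp4 by 3.82 and Myl7, a myosin light chain best known from the heart atrium, by 3.64. Mboat1, an acyltransferase of lysophospholipids, rose by 3.54 from 4.80 and 4.45 to 8.26 and 8.06. Anxa10, an annexin known from gastric epithelium (4.07 and 4.61 in WT), and Retnlb, a goblet cell protein related to resistin, had the widest gaps between the bCATca arrays of this set, at 9.06 and 7.82 and at 8.30 and 9.94. In fits that left out each of the 8 arrays in turn, 13 of the 15 kept their call; Anxa10 lost it (adjusted p = 0.0853 without WT replicate 1) and so did Retnlb (adjusted p = 0.0804 without WT replicate 2).

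**Figure D2:**
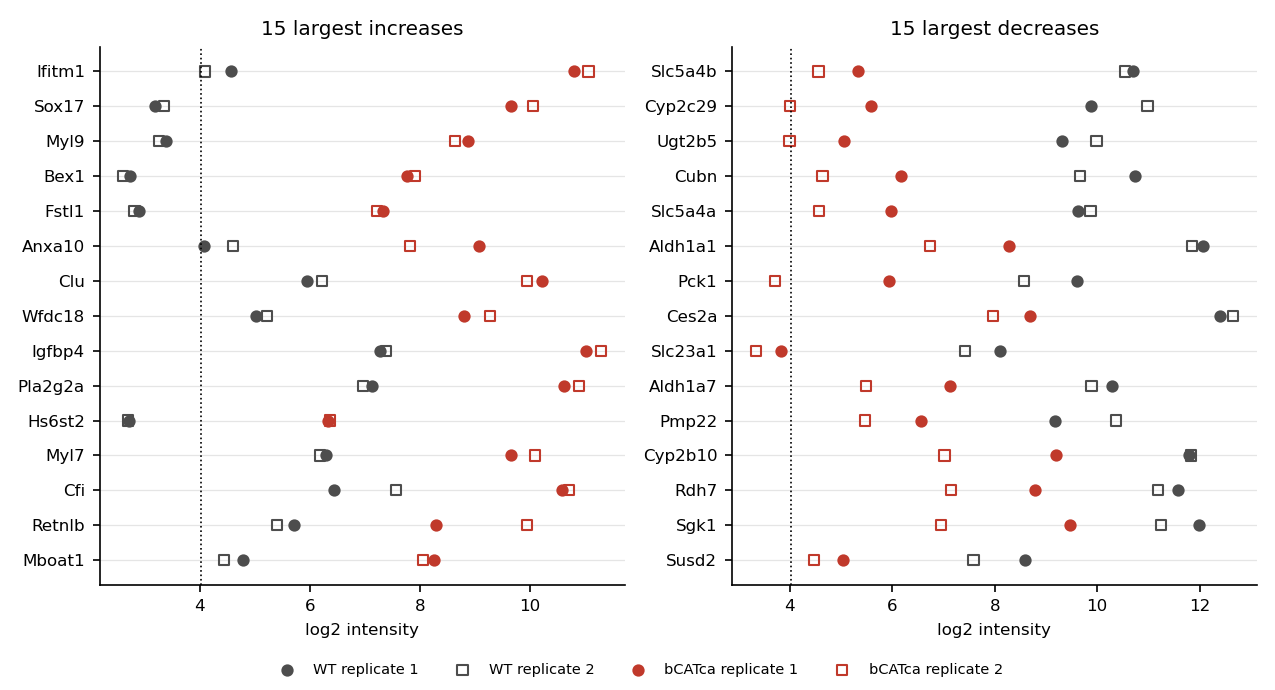
Log2 intensity (x axis) of the 15 genes with the largest increases (left) and the 15 with the largest decreases (right), with 1 symbol per array; WT is grey, bCATca is red, replicate 1 is a filled circle and replicate 2 an open square, and the dotted line is the background guide of 4.03. The 2 groups do not overlap for any of these genes because this was required when they were picked. The bCATca arrays lie further apart among the decreases than among most of the increases.

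By a rule for called genes at or under the guide on both WT arrays and with a bCATca mean at least 4-fold above it, 10 genes went from off to on, among them Sox17, Myl9, Bex1, Fstl1, Hs6st2, Nkd1, Cited1, Peg3 and Pdlim7. Cited1, a co-regulator that binds the acetyltransferases CBP and p300, read 2.96 and 3.19 in WT and 6.64 and 6.13 in bCATca. Peg3, an imprinted zinc finger gene expressed from the paternal allele, read 3.49 and 3.98 against 6.56 and 5.57, with 2 of 3 probe sets in that direction. Nkd1 is a feedback inhibitor of Wnt signalling and rose by 3.04. Peg3 lost its call without WT replicate 1 (adjusted p = 0.0714), and the others named kept theirs in all 8 fits. The opposite switch was found for 2 genes, Slc23a1, a vitamin C transporter (8.11 and 7.43 in WT, 3.83 and 3.34 in bCATca), and Gcg, which encodes proglucagon (5.80 and 6.37 against 3.71 and 3.82).

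Regulation of cell shape and tension depends on actin filaments, their cross-linkers and myosin. Of 33 genes of actomyosin and actin-binding proteins, 7 rose and 1 fell (median change 0.20, against 0.01 over all genes). These shares were 21.2% and 3.03%, against 5.74% and 3.55% of all genes. Marcksl1, a membrane-bound actin regulator, read 6.28 and 6.24 in WT and 8.79 and 8.88 in bCATca, a rise of 2.57 (SE 0.15, 5.96-fold, adjusted p = 0.000157). Pdlim7, a scaffold on actin bundles, rose by 2.11 from the guide level, and Cnn3, a calponin, by 1.41 from 9.41 and 8.95 to 10.51 and 10.67. Actn1, the cross-linker α-actinin, rose by 1.24 and Csrp1, a LIM protein of actin bundles, by 1.12. Ezr, which ties microvillar actin to the membrane, fell by 0.67 from 10.91 and 11.28 to 10.46 and 10.39. Myl9, Marcksl1 and Pdlim7 kept their calls with any array left out, while the others named lost theirs in at least 1 fit (adjusted p up to 0.26, for Ezr without WT replicate 2), and the number that rose ranged from 3 to 9 over the 8 fits.

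Myl9 and several of these genes are also made by smooth muscle. Smooth muscle and fibroblast markers are given beside them, and the part of these cells in the results was not tested. Of 15 smooth muscle markers none rose and 2 fell, with a median of -0.17 and summed intensities of 4602 and 5291 in WT against 5011 and 3677 in bCATca; 6 of the 15 were at or under the guide on all arrays. Des, the intermediate filament of muscle, read 5.89 and 6.15 in WT and 5.47 and 5.11 in bCATca (adjusted p = 0.0446), and Tagln, an actin-binding protein of smooth muscle, read 4.93 on both WT arrays and 4.42 and 4.12 in bCATca (adjusted p = 0.0335). Of 19 fibroblast markers 1 rose (5.26%, against 5.74% of all genes) and none fell. In this list 16 members were below 0, the median was -0.24, and 8 were at or under the guide on every array. The marker that rose was Vim, an intermediate filament of mesenchymal cells, by 1.20 from 7.01 and 6.10 to 7.93 and 7.58. The calls of Des, Tagln and Vim were each lost without WT replicate 2 and without bCATca replicate 2, among other arrays (adjusted p up to 0.244, for Des without WT replicate 2).

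Other cytoskeletal families had some members called. Of 40 keratins 3 rose and 2 fell, 7.5% and 5%, near the 5.74% and 3.55% of all genes. Their median was -0.07, and 15 were at or under the guide on every array. Krt7, a keratin of simple ducts, read 8.38 and 8.49 in WT and 9.74 and 9.81 in bCATca, and Krt23 rose by 1.81 beside Krt18 at 1.17. Krt6b (-0.85) and Krt33b (-0.60), keratins of stratified epithelium and hair, fell at low levels. Of 15 tubulins 3 rose, with Tubb5, the common β-tubulin, at 10.32 and 9.71 in WT and 11.14 and 11.26 in bCATca. None of 21 desmosome and adherens junction genes was called by limma, with 5 higher and 1 lower at an unadjusted p under 0.05, a share close to the 29.4% of all genes. The member with the smallest p was Pkp1, a desmosomal plaque protein, at 0.63 (adjusted p = 0.0775). Of 13 genes of the brush border cytoskeleton none rose and 3 fell, with 12 of 13 below 0 and a median of -0.33: Ezr, Pls1 (an actin bundler of microvilli, -0.64) and Eps8l3 (-0.64). Outside Krt7 and Krt18, the calls of this paragraph were lost in at least 1 fit with an array left out (adjusted p up to 0.26).

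Counts of called genes in signalling pathways other than Wnt are to be read against 5.74% higher and 3.55% lower over all genes. The lists were chosen with earlier results of these data known, so their shares describe these members and test no pathway. In the TGF-β, activin and follistatin list, 4 of 25 genes rose (16%) and none fell. The median was -0.05, with 12 members above 0 and 13 below. Tgfbr2, the ligand-binding TGF-β receptor, read 6.89 and 6.67 in WT and 8.88 and 8.96 in bCATca, a rise of 2.15 (SE 0.15, 4.43-fold, adjusted p = 0.000349). Pmepa1, an inhibitor of SMAD signalling, rose by 1.56 and Tgif1, a SMAD co-repressor, by 1.26, beside Fstl1. Among 12 Hedgehog genes the single call was Smo, the signal transducer of the pathway, at 5.64 and 5.44 in WT and 7.15 and 7.18 in bCATca (change 1.62, SE 0.17, adjusted p = 0.00173). Of 23 FGF and MAPK feedback genes 1 rose and 1 fell: Etv5, an ETS factor downstream of FGF signals, read 3.08 and 2.70 against 4.43 and 4.62, and Fgfbp1, a carrier that releases FGFs, read 8.01 and 7.54 against 6.06 and 6.66. Fstl1, Tgfbr2 and Smo were called in all 8 fits, and the other named genes lost their call in some (adjusted p up to 0.122, for Fgfbp1 without WT replicate 1).

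Of 19 genes of the Hippo pathway and YAP targets, 3 rose (15.8%, against 5.74% of all genes) and none fell (median 0.06). This list too was chosen with earlier results known, so the share is no test of the pathway. Wwtr1, which encodes the transcriptional co-activator TAZ, read 4.56 and 4.88 in WT and 7.40 and 7.42 in bCATca, a rise of 2.69 (SE 0.39, 6.45-fold, adjusted p = 0.00671). Ajuba, a LIM protein that restrains the Hippo kinase LATS, rose by 1.78 and Ctnnal1, a relative of α-catenin, by 1.33. Ctnnal1 kept its call in all 8 fits, while Wwtr1 and Ajuba lost theirs in some (adjusted p up to 0.06 without WT replicate 1 and 0.0801 without bCATca replicate 2).

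The Wwtr1 promoter is shown because it holds the core motif of TCF/LEF factors, the DNA-binding partners of β-catenin, and Tnfrsf19, a stem cell receptor of the TNF family that rose by 3.15 (4.27 and 3.92 in WT, 7.32 and 7.18 in bCATca), is set beside it. Sequences are from RefSeq promoters of build GRCm38.p6, 5′ to 3′ on the strand of the gene, and capitals mark the match to CTTTGAT or CTTTGAA on either strand. The Wwtr1 stretch lies at chr3:57576040-57576116 on the minus strand, with the match starting 171 bases before the start site, and both Wwtr1 windows hold a match. The Tnfrsf19 stretch lies at chr14:61038148-61038224 on the minus strand, with the match starting 202 bases before the start site, in 1 of 2 windows.
Wwtr1: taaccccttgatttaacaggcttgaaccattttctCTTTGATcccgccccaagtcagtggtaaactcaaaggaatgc
Tnfrsf19: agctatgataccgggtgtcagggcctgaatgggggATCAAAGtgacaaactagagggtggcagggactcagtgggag
Across genes the motif was found in the 250 bases before the start in 5.47% of the windows of genes called higher, 8.99% of those called lower, 5.89% of those of all measured genes and 7.48% of all promoters in the table. For the 15 largest increases, 10 genes had 11 windows, of which none held it, and for the 15 largest decreases, 13 genes had 23 windows, of which 5 did. A match in these letters is a description and no evidence of binding, and the lack of one concerns these windows alone.

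Guidance molecules, which steer axons and also epithelial and vascular cells, had 4 members higher and none lower of 30 (median -0.11). The share higher was 13.3%, against 5.74% of all genes, in a list likewise chosen with earlier results known. Robo1, a receptor of Slit ligands, read 2.15 and 1.97 in WT and 3.61 and 3.99 in bCATca, all under the guide. Slit2, a Robo ligand, read 3.81 and 4.34 against 5.28 and 5.21. Sema7a, a membrane-anchored semaphorin, rose by 1.44 and Sema3b, a secreted one, by 0.71. Robo1 was called in all 8 fits, whereas the other 3 were not (adjusted p up to 0.151, for Sema3b without WT replicate 1).

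Interleukins, TNF family members and their receptors went both ways, with 2 of 33 higher and 4 lower (median -0.03). These shares were 6.06% and 12.1%, against 5.74% and 3.55% of all genes. Il33, a nuclear cytokine released by damaged barrier cells, read 7.29 and 8.20 in WT and 9.32 and 9.25 in bCATca. Tnfrsf12a, the receptor of the cytokine TWEAK, read 6.53 and 6.85 against 8.19 and 7.88. Il15, a cytokine that sustains intraepithelial lymphocytes, fell by 2.03 (SE 0.48, adjusted p = 0.0375), from 7.49 and 7.67 to 6.10 and 4.99. Tnfrsf21, also called death receptor 6, fell by 1.29, Il10rb, a subunit of the IL-10 receptor, by 0.79 and Il6ra, the IL-6 receptor, by 0.62. For Il6ra only 1 of 2 probe sets went in that direction. None of these 6 kept its call in every fit with an array left out (adjusted p up to 0.225, for Il6ra without WT replicate 2).

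Markers of immune cells are given beside these genes, since the samples were whole cell preparations. All 19 T cell and intraepithelial lymphocyte markers had changes below 0 with a median of -0.62, none was called by limma, and 3 were lower at an unadjusted p under 0.05, a share near that of all genes (1546 of 12393). Their summed intensity was 13018 and 9593 in WT and 8135 and 6236 in bCATca, and 1 of the 19 was at or under the guide on every array. In bulk samples fewer cells of a type and less RNA per cell cannot be told apart. Of 24 myeloid markers 1 rose, Cd14, a co-receptor for lipopolysaccharide, by 1.32, and summed intensities overlapped (14387 and 13681 against 14362 and 13865). Among 19 neutrophil and mast cell markers 3 rose and 1 fell, 15.8% and 5.26% against 5.74% and 3.55% of all genes. The median was -0.04 with 12 members below 0, and sums were 413 and 370 in WT against 814 and 679. The mucosal mast cell proteases Mcpt2 (1.85) and Mcpt1 (1.59) and Kit (1.20) rose. Cxcr2 fell (-0.70) and was under the guide on the WT and bCATca arrays. Vwf, of endothelium (19 markers, no other call), rose by 1.03 under the guide, and the 13 B and plasma cell, 16 enteric neuron and glia, 10 acinar and 7 erythroid markers had no call by limma, with 2, 0, 0 and 0 higher and 1, 4, 0 and 1 lower at an unadjusted p under 0.05. None of the 6 called markers kept its call in every fit with an array left out (adjusted p up to 0.257, for Mcpt1 without WT replicate 2). The part of these cells in the results was not tested.

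Several secreted proteins that act on the matrix or on growth factors rose. Of 28 matrix proteases and inhibitors, 5 rose and none fell (median 0.10), a share higher of 17.9% against 5.74% of all genes. Htra1, a secreted serine protease, read 4.29 and 4.34 in WT and 7.20 and 7.01 in bCATca, a rise of 2.79 (SE 0.23, 6.93-fold, adjusted p = 0.000675). Mmp14, a membrane-bound collagenase, read 6.32 and 6.97 against 8.55 and 8.18, and Plat, the tissue plasminogen activator, read 3.47 and 3.10 against 4.93 and 5.31. Mmp7, a Paneth cell protease that activates α-defensins, rose by 1.89 and Adam8, a membrane protease of leukocytes and tumours, by 1.01. By contrast, 1 of 28 basement membrane and secreted matrix proteins rose (3.57%), Col4a1 at 0.72, and none fell. Htra1, Plat and Mmp14 kept their calls in all 8 fits, and Mmp7, Adam8 and Col4a1 did not (adjusted p up to 0.109, for Col4a1 without bCATca replicate 2).

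IGF binding proteins hold insulin-like growth factors outside cells. Of 8 members 3 rose and 1 fell. Igfbp4 read 7.28 and 7.38 in WT and 11.02 and 11.28 in bCATca (change 3.82, SE 0.23, 14.1-fold, adjusted p = 0.000163), with all 6 of its probe sets in that direction. Igfbp1, best known from the liver, read 2.50 and 2.36 against 6.08 and 5.24, and Igfbp3 read 3.54 and 3.35 against 5.29 and 5.14, so both rose from under the guide. Igfbp5 fell by 0.67 and lost its call in 6 fits (adjusted p up to 0.211), while the other 3 kept theirs in all 8.

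Among 29 complement and coagulation genes 3 rose (10.3%, against 5.74% of all genes) and none fell. The median was 0.16, and 10 of the 29 were at or under the guide on every array. Cfi, the protease that inactivates complement fragments, read 6.45 and 7.57 in WT and 10.57 and 10.71 in bCATca, and C2, a protease of complement activation, rose by 1.00 beside Clu. The call of C2 was lost in 6 fits (adjusted p up to 0.231, without WT replicate 2) and those of Clu and Cfi in none. In prostaglandin and leukotriene metabolism, 2 of 23 genes rose and 2 fell, 8.70% each way against 5.74% and 3.55% of all genes. Pla2g2a, a secreted phospholipase A2, read 7.14 and 6.97 in WT and 10.62 and 10.88 in bCATca, a rise of 3.69 (SE 0.22, 12.9-fold, adjusted p = 0.000163), and Pla2g5, a related enzyme, rose by 2.72 from 5.34 and 3.84. Hpgd, which inactivates prostaglandins, fell by 2.61 from 11.89 and 11.57 to 9.41 and 8.83 (SE 0.31, adjusted p = 0.00305), and Ephx2, an epoxide hydrolase, fell by 1.66. Pla2g2a and Hpgd were called in all 8 fits, and Pla2g5 and Ephx2 were not (adjusted p up to 0.0851 and 0.114).

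Of 48 glycosyltransferases and sulfotransferases 1 rose and 3 fell (median -0.04), 2.08% and 6.25% against 5.74% and 3.55% of all genes. Hs3st1, a heparan sulfate 3-O-sulfotransferase, read 4.92 and 5.75 in WT and 7.33 and 6.77 in bCATca. B4galnt1, a ganglioside synthase, fell by 0.74, St3gal1, a sialyltransferase, by 0.65 and Ugcg, which makes glucosylceramide, by 0.61. None of the 4 was called in all 8 fits (adjusted p up to 0.22, for Ugcg without WT replicate 2).

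Genes of biosynthesis shifted by small amounts in many members. All 28 translation initiation and elongation factors and all 20 aminoacyl-tRNA synthetases had changes above 0, with medians of 0.50 and 0.56. Of these, 5 and 3 rose, and 17 and 14 were higher at an unadjusted p under 0.05. IKK-AA replicate 1, without stabilised β-catenin, also stood above the WT mean, at medians of 0.35 and 0.63, and IKK-AA replicate 2 at 0.05 in both. The median changes in IKK-AA_bCATca against IKK-AA were 0.10 and 0.28. Eif2s2, a subunit of the factor that brings initiator tRNA to the ribosome, read 10.16 and 10.07 in WT and 11.01 and 11.31 in bCATca. Of its 6 probe sets 5 went in that direction. Vars, the valine synthetase, read 7.57 and 7.02 against 8.32 and 8.63, and Gars and Wars, for glycine and tryptophan, rose by 1.04 and 0.94. Eif1a rose by 0.88, Eif3d by 0.80, Eif3i by 0.69 and Eif3e by 0.63. Each of these calls was lost in some fit with an array left out (adjusted p up to 0.259, for Eif3d without WT replicate 2). Over the 8 fits the list medians stayed between 0.36 and 0.59 and between 0.42 and 0.72, while the number called ranged from 0 to 12 and from 0 to 9.

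Serine, one-carbon and nucleotide synthesis supplies building blocks of DNA and RNA. Of 29 members 5 rose and none fell, 26 were above 0 and the median was 0.54. The IKK-AA arrays stood at medians of 0.46 (replicate 1) and 0.03 (replicate 2) above the WT mean. The median change in IKK-AA_bCATca against IKK-AA was 0.12. Ppat, the entry enzyme of purine synthesis, read 5.87 and 5.84 in WT and 6.87 and 7.22 in bCATca. Paics, which acts further along the same pathway, read 8.33 and 8.01 against 9.18 and 9.73. Phgdh, the entry enzyme of serine synthesis, rose by 0.94, Mtap, of methionine salvage, by 1.62 and Ctps, which makes CTP, by 0.92. Ppat was called in all 8 fits, and the other 4 were not (adjusted p up to 0.236, for Ctps without WT replicate 2).

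Ppat, Paics and Hopx are neighbours on chromosome 5 and all 3 rose; Hopx, at 0.58, lost its call in 6 fits (adjusted p up to 0.195, without WT replicate 1). The Paics promoter at chr5:76951064-76951139 on the plus strand is shown for the motif CACGTG, the core E-box bound by MYC and related factors, which starts 203 bases before the start site. This motif was added after the values were seen, and it was in 8.76% of the windows of genes called higher, 7.37% of those called lower, 7.68% of all measured genes and 6.02% of all promoters.
Paics: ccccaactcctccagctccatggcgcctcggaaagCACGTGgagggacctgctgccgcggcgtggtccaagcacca

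In RNA splicing 35 of 36 factors were above 0, with a median of 0.31, and 1 rose, Lsm4 (0.77). Of 29 chromatin and DNA methylation regulators 6 rose (20.7%, against 5.74% of all genes) and none fell (median 0.40). Hmgn1, a nucleosome-binding protein, read 10.31 and 9.92 in WT and 11.02 and 11.18 in bCATca, with 3 of 4 probe sets in that direction. The others were Nap1l1, a histone chaperone (0.97), Hmga2, an architectural protein of fetal and tumour cells (0.89), Smarca4, the ATPase of SWI/SNF complexes (0.76), and the Polycomb genes Ezh2 (0.60) and Ring1 (0.59). Of 53 genes whose symbols start like those of cytosolic ribosomal proteins 6 rose (11.3%) and none fell, with a median of 0.35. Symbols of Rps6 kinases start in the same way, and 4 of the 53 were at or under the guide on every array. Rps6, whose phosphorylation follows mTOR activity, had the largest change, from 7.58 and 7.46 to 8.65 and 8.93, though only 1 of its 2 probe sets went in that direction. None of 74 mitochondrial ribosomal proteins was called by limma, although 71 were above 0 with a median of 0.32 and 14 were higher, 0 lower, at an unadjusted p under 0.05, against 2102 and 1546 of all 12393 genes. Of subunits of respiratory complex I, 20 of 33 were above 0 with a median of 0.04. Apart from Rps6, no gene named here was called in all 8 fits (adjusted p up to 0.247 among those named, for Ezh2 without WT replicate 2). WT replicate 1 read higher than WT replicate 2 in these lists, as the plot of list medians shows. Relative to the WT mean, IKK-AA replicate 1 had medians of 0.39 for splicing factors and 0.31 for mitochondrial ribosomal proteins. Those of IKK-AA replicate 2 were 0.003 and -0.03. The median changes in IKK-AA_bCATca against IKK-AA were 0.04 and -0.005.

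**Figure D3:**
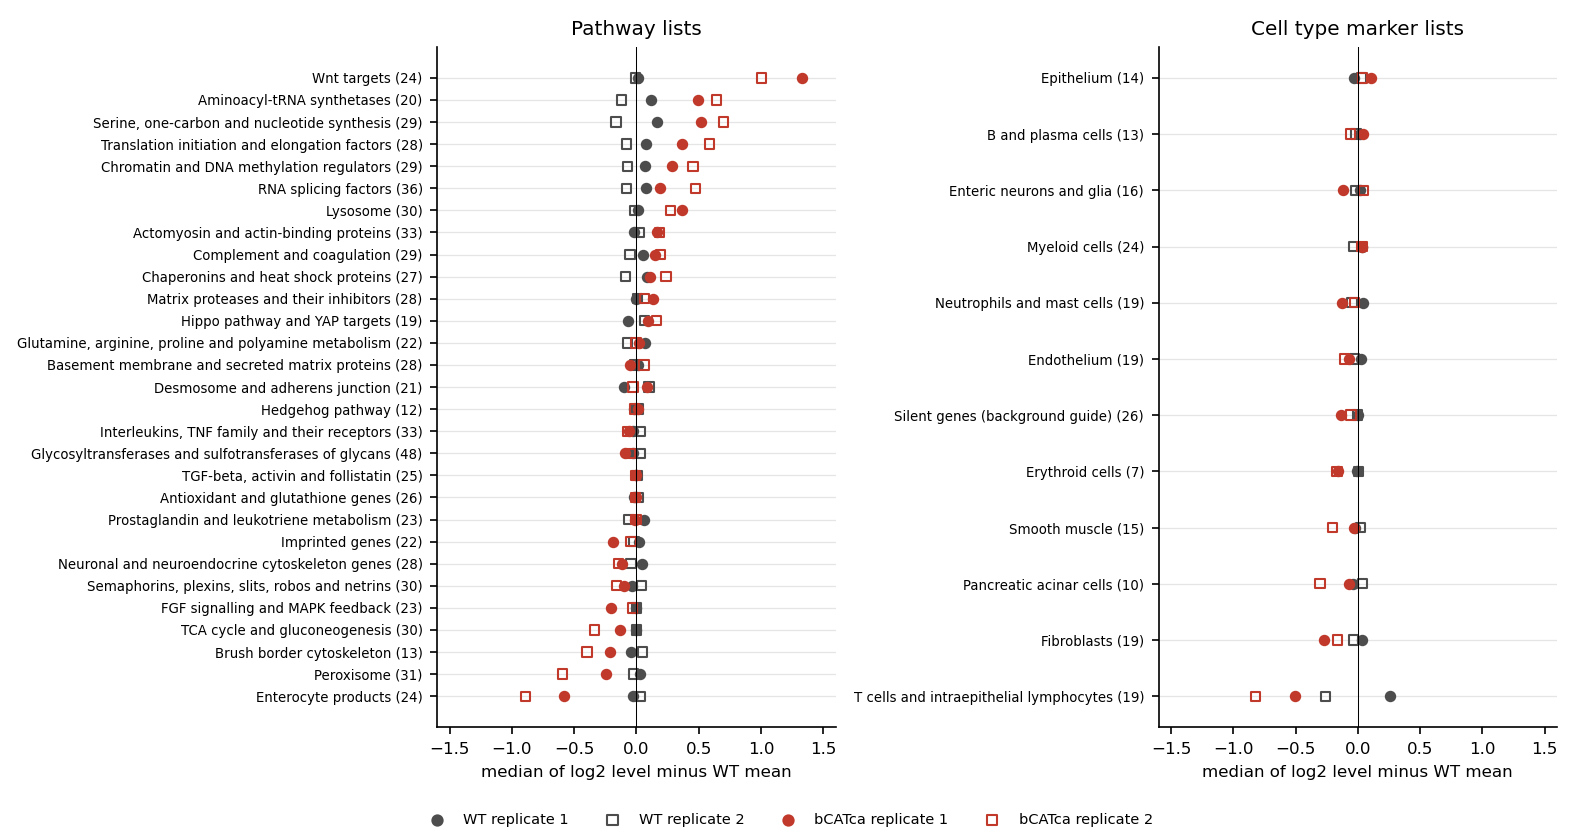
For each pathway list (left) and cell type marker list (right), the median over its measured members (number in brackets) of the log2 level minus the WT mean is plotted on the x axis, with 1 symbol per array; WT is grey, bCATca is red, replicate 1 is a filled circle and replicate 2 an open square. Biosynthesis lists lie above both WT arrays on both bCATca arrays, and peroxisome, gluconeogenesis and enterocyte lists lie below them. In most of these lists bCATca replicate 2 is further from WT than replicate 1. The IKK-AA and IKK-AA_bCATca arrays are not drawn.

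Lysosomal genes also rose: 9 of 30 (30%, against 5.74% of all genes) and none fell, with 24 above 0 and a median of 0.28. Ctsl, a cathepsin protease, read 8.15 and 8.33 in WT and 9.77 and 10.01 in bCATca (change 1.64, SE 0.21, 3.13-fold, adjusted p = 0.00408). The glycosidases Gla, Gaa, Gusb and Glb1 rose by 1.33, 1.08, 1.02 and 0.82 and the sialidase Neu1 by 0.72, with 2 of 3 probe sets of Neu1 in that direction. Both IKK-AA arrays, without stabilised β-catenin, also stood above the WT mean, at list medians of 0.22. The median change in IKK-AA_bCATca against IKK-AA was 0.10. Ctsl, Gla and Gaa kept their calls in all 8 fits, Gusb, Glb1 and Neu1 did not (adjusted p up to 0.225, for Glb1 without WT replicate 2), and the number that rose ranged from 3 to 9. None of 27 chaperonins and heat shock proteins was called by limma (median 0.14), with 6 higher and 1 lower at an unadjusted p under 0.05, no more than the 29.4% of all genes. The chaperonin subunit Cct7 had the smallest p, at 0.69 (adjusted p = 0.0754).

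Among transcription factor families, 3 of 17 Sox factors rose and 1 fell. Sox4, a factor of crypt progenitors, read 7.94 and 7.68 in WT and 9.20 and 9.37 in bCATca, with all 6 probe sets in that direction, and Sox12 rose by 0.59. Sox6 fell by 1.37, from 6.76 and 7.08 to 5.82 and 5.28. Of 34 Fox factors 2 rose and 1 fell, 5.88% and 2.94%, near the 5.74% and 3.55% of all genes. The endodermal pioneer factors Foxa3 and Foxa1 rose by 1.26 and 1.19, from 6.98 and 6.72 to 8.05 and 8.18 and from 6.84 and 6.67 to 7.83 and 8.06. Foxl1, a factor of the mesenchyme under the epithelium, fell by 0.80. Sox4 and Foxa3 were called in all 8 fits; Sox6, Sox12, Foxa1 and Foxl1 were not (adjusted p up to 0.242, for Sox12 without bCATca replicate 2).

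Of 28 genes of neuronal and neuroendocrine cytoskeleton 3 rose (10.7%, against 5.74% of all genes) and none fell. The median was -0.09 with 17 members below 0, and 13 of the 28 were at or under the guide on every array. Those that rose were Bex1, its relative Bex3 (7.90 and 7.70 in WT, 8.74 and 8.86 in bCATca) and Stmn1, a microtubule destabiliser of dividing cells (0.79). Of 22 imprinted genes 2 rose (9.09%) and none fell, with 14 below 0 and a median of -0.08. The 2 were Slc38a4, an amino acid transporter, from 2.50 and 2.36 to 5.01 and 6.00, and Peg3. Slc25a4, a mitochondrial ADP/ATP carrier of muscle, read 7.32 and 6.79 in WT and 9.32 and 9.65 in bCATca, with all 4 probe sets in that direction. S100a6, a calcium-binding protein of proliferating cells, read 8.53 and 8.40 against 10.23 and 10.27. Of these genes Bex3, Stmn1 and Peg3 lost their calls in some fits with an array left out (adjusted p up to 0.143, for Stmn1 without WT replicate 2).

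Among the 15 largest decreases, Slc5a4b and Slc5a4a, of the sodium-coupled sugar transporter family, read 10.71 and 10.54 and 9.63 and 9.87 in WT and 5.33 and 4.56 and 5.98 and 4.57 in bCATca. Slc23a1 and Pmp22, a membrane protein named for its part in myelin, fell by 4.18 (SE 0.29, adjusted p = 0.000349) and 3.75 (SE 0.42, adjusted p = 0.00244), and Susd2, a membrane protein with a sushi domain, by 3.33. These 5 genes were called in all 8 fits. The other 10 of the 15 were Cyp2c29, Ugt2b5, Cubn, Aldh1a1, Pck1, Ces2a, Aldh1a7, Cyp2b10, Rdh7 and Sgk1. Each lost its call in at least 1 fit, with adjusted p up to 0.218 (Cyp2b10 without bCATca replicate 2). Sgk1, a kinase that regulates ion transport, read 11.98 and 11.24 in WT and 9.47 and 6.95 in bCATca, so the bCATca arrays differed by more than the WT arrays did. Rdh7, a retinol dehydrogenase, read 11.57 and 11.18 against 8.78 and 7.15.

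Families of absorption and detoxification held many of the decreases. Of 273 solute carriers 34 fell and 21 rose, 12.5% and 7.69% against 3.55% and 5.74% of all genes. Slc47a1, a pump that extrudes organic cations, fell by 3.12 from 9.44 and 9.05 to 6.54 and 5.69. Of 64 cytochrome P450 genes 12 fell and 1 rose, with 52 below 0, a median of -0.37 and 29 at or under the guide on every array. The exception was Cyp2e1, an alcohol-inducible enzyme, at 4.68 and 4.94 in WT and 7.15 and 5.95 in bCATca (adjusted p = 0.0498). Of 18 glutathione transferases 7 fell and 1 rose, with a median of -1.20: Gsta2 read 7.64 and 7.77 in WT and 4.79 and 5.23 in bCATca, and Gsta3 8.08 and 8.52 against 5.01 and 6.45. Of 17 aldehyde dehydrogenases 7 fell and 1 rose, and among them Aldh8a1 fell by 1.32, Aldh4a1 by 1.5 and Aldh6a1 by 1.19, whereas Aldh7a1, of lysine breakdown, rose by 1.14 in 2 of 3 probe sets. With an array left out, the number that fell ranged from 0 to 20 for cytochrome P450 genes, from 0 to 10 for glutathione transferases and from 8 to 46 for solute carriers. In all 3 families the lowest counts came without WT replicate 1, WT replicate 2 or bCATca replicate 2, and the highest without an IKK-AA array. Aldh8a1 alone of the genes newly named here was called in all 8 fits (adjusted p up to 0.184 among the others, for Cyp2e1 without WT replicate 2).

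In the list of the TCA cycle and gluconeogenesis 5 of 30 genes fell and 1 rose, with 25 below 0 and a median of -0.25. These shares were 16.7% and 3.33%, against 3.55% and 5.74% of all genes. The decreases centred on enzymes of glucose production. G6pc, which releases free glucose, read 10.18 and 9.34 in WT and 6.94 and 6.57 in bCATca, a change of -3.01 (SE 0.41, adjusted p = 0.00492). Fbp1, the enzyme before it, read 10.28 and 10.02 against 7.19 and 7.07, and Pck1, the cytosolic entry enzyme, read 9.61 and 8.57 against 5.94 and 3.72. Pck2, the mitochondrial counterpart of Pck1, rose by 0.83, from 6.92 and 7.22 to 7.96 and 7.83. Idh1, the cytosolic isocitrate dehydrogenase, and Me2, a mitochondrial malic enzyme, both fell by 0.93. G6pc was called in all 8 fits, and the rest lost their call in some (adjusted p up to 0.213, for Idh1 without WT replicate 2).

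Peroxisomal genes fell in 5 of 31 cases (16.1%, against 3.55% of all genes) and rose in none, with 23 below 0 and a median of -0.51. Relative to the WT mean, IKK-AA replicate 1 had a list median of -0.37 and replicate 2 of -0.10. Acox2, an oxidase of branched fatty acids and bile acid precursors, read 7.96 and 7.64 in WT and 4.96 and 5.25 in bCATca (change -2.70, SE 0.25, adjusted p = 0.00105). Cat, which encodes catalase, read 10.72 and 10.58 against 8.92 and 7.94, and Hsd17b4, Dao and Abcd3 had changes of -1.05, -0.93 and -0.84. Of 26 antioxidant and glutathione genes 4 fell and none rose: Gclc and Gclm, the subunits of the first enzyme of glutathione synthesis, read 9.89 and 9.70 and 10.31 and 10.40 in WT and 8.23 and 8.78 and 9.54 and 9.47 in bCATca. Nqo1, a quinone reductase, fell by 1.08 and Sesn2, a stress-induced sestrin, by 0.69. At an unadjusted p under 0.05 the list had 8 members higher and 7 lower, so it did not move as 1 group. Acox2 was called in all 8 fits, and the other genes were not (adjusted p up to 0.253, for Sesn2 without WT replicate 2).

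In glutamine, arginine, proline and polyamine metabolism 4 of 22 genes fell and 1 rose (median 0.04), 18.2% and 4.55% against 3.55% and 5.74% of all genes. Otc, which makes citrulline, a main product of enterocytes, read 10.90 and 10.84 in WT and 9.52 and 9.18 in bCATca, a fall of 1.52 (SE 0.16, adjusted p = 0.00157). Arg2, the mitochondrial arginase, fell by 1.27, Glud1, which turns glutamate into a TCA intermediate, by 1.22 and Gpt, an alanine transaminase, by 1.13. Glul, which makes glutamine, went the other way, from 6.95 and 6.62 to 7.72 and 8.0. Otc was called in all 8 fits, and the other 4 were not (adjusted p up to 0.161, for Arg2 without WT replicate 2).

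Called genes lay next to each other in places. Of 12376 genes placed in chromosomal order, 49 stood in 15 runs of 3 or more neighbours called in the same direction, 11 higher and 4 lower. How many such runs would arise from the shares of called genes alone was not worked out. On chromosome 8, Ces1d, Ces1e, Ces1f and Ces1g, carboxylesterases of drug and lipid ester breakdown, had changes of -2.80, -2.23, -2.70 and -3.03, and Ces2a, Ces2e and Ces2g of -4.20, -1.27 and -1.94. On chromosome 3, Gstm6, Gstm3, Gstm2 and Gstm1 had changes of -2.08, -2.21, -1.99 and -2.30. On chromosome 4, Pla2g2f, Pla2g2d, Pla2g5 and Pla2g2a rose by 1.12, 0.77, 2.72 and 3.69, with 1 of 2 probe sets of Pla2g2f in that direction. Members of such families are alike in sequence and could share signal between their probe sets. Of these genes Ces1e, Ces1f and Pla2g2a were called in all 8 fits (adjusted p up to 0.213 among the others, for Gstm1 without WT replicate 2).

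On chromosome 7, Pgghg, Ifitm2, Ifitm1 and Ifitm3 rose by 0.77, 1.64, 6.59 and 2.83. The Ifitm genes encode membrane proteins that restrict virus entry, and the 3 differed in WT level: Ifitm2 read 10.003 and 9.42 and Ifitm3 9.61 and 8.96, while Ifitm1 was close to background. All 3 were called in all 8 fits, and Pgghg, which trims collagen-linked sugars, was not (adjusted p = 0.15 without WT replicate 2). Of the runs of 3, those named here and the Ces2 run were chosen after their values were seen. On chromosome 19 the fatty acid desaturases Fads3, Fads2 and Fads1 rose by 1.48, 1.06 and 1.04. On chromosome X, Bex1, Tceal9 and Bex3 rose by 5.17, 1.15 and 1.00, and on chromosome 11 Ramp3, Igfbp1 and Igfbp3 rose by 0.66, 3.23 and 1.77. Dlgap4, Myl9 and Tgif2 on chromosome 2 rose by 0.91, 5.42 and 2.39, and Tgif2, a SMAD co-repressor like Tgif1, read 5.14 and 5.19 in WT and 7.60 and 7.51 in bCATca. Fads1, Fads2, Fads3, Tceal9, Bex3, Ramp3 and Dlgap4 were not called in every fit with an array left out (adjusted p up to 0.211, for Ramp3 without bCATca replicate 2).

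The Ifitm2 promoter at chr7:140955963-140956042 on the minus strand holds a match to the core of interferon-stimulated response elements, GAAA and GAAA parted by any 2 bases, and is shown for this. The match, in capitals, starts 46 bases before the start site. This motif was added after the values were seen; counted on both strands it was in 2.33% of windows of genes called higher, 1.84% of those called lower, 2.74% of those of all measured genes and 2.98% of all promoters.
Ifitm2: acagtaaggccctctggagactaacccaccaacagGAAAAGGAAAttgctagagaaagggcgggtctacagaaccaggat

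**Figure D4:**
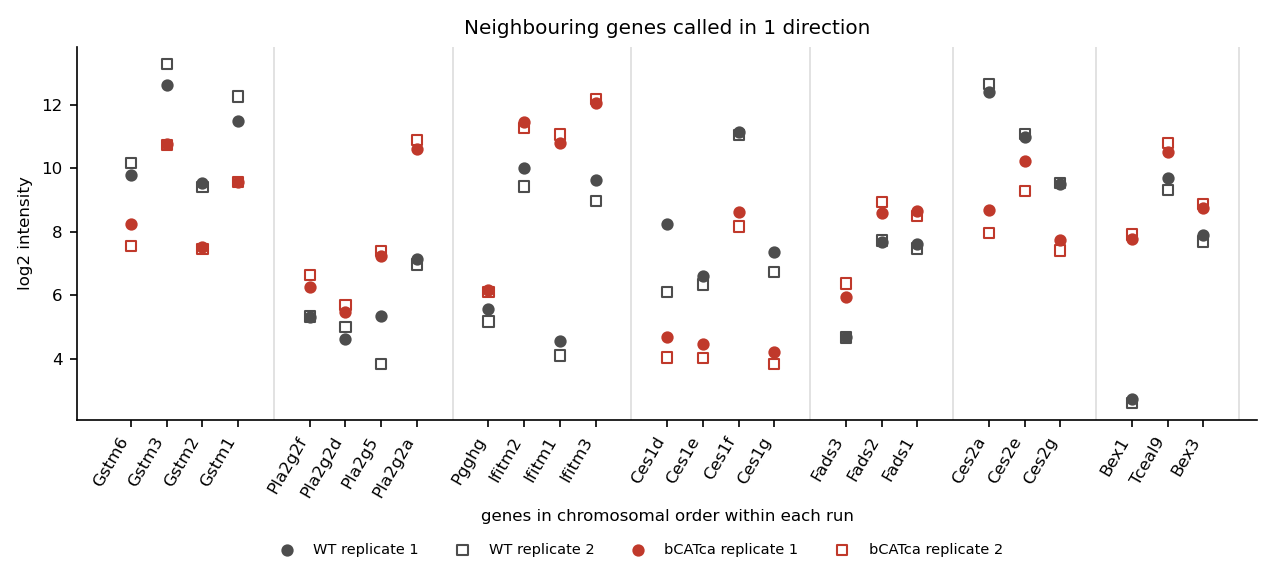
Log2 intensity (y axis) of genes in 7 runs of neighbours called in 1 direction, in chromosomal order within each run (x axis) with runs parted by lines; WT is grey, bCATca is red, replicate 1 is a filled circle and replicate 2 an open square. The runs were picked for their gene families after the values were seen. All Gstm and Ces genes lie lower in bCATca and all Pla2g2, Ifitm, Fads and Bex genes lie higher.

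The bCATca arrays differed from each other in a direction that followed the comparison. Of the 440 genes that fell, 341 were lower on bCATca replicate 2 than on replicate 1, with a median difference of -0.22, and 28 were at least 2-fold lower there against 1 at least 2-fold higher. Of the 711 that rose, 478 were higher on replicate 2 (median difference 0.11). Over the genes not called the median difference was 0.01. The widest gaps among called genes were those of Lrg1, a leucine-rich glycoprotein of inflammation (6.50 and 8.98 in bCATca, 4.07 and 4.63 in WT), Sgk1, and Pck1 (5.94 and 3.72). Cxcl9, a chemokine induced by interferon-γ, read 5.83 and 8.01 against 4.46 and 3.06 in WT, and Bst1, a membrane enzyme that consumes NAD, read 8.41 and 6.57 against 10.07 and 10.15. None of these 5 genes was called in all 8 fits (adjusted p up to 0.229, for Cxcl9 without WT replicate 2). Relative to the WT mean the genes that fell stood at a median of -0.87 on replicate 1 and -1.06 on replicate 2.

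**Figure D5:**
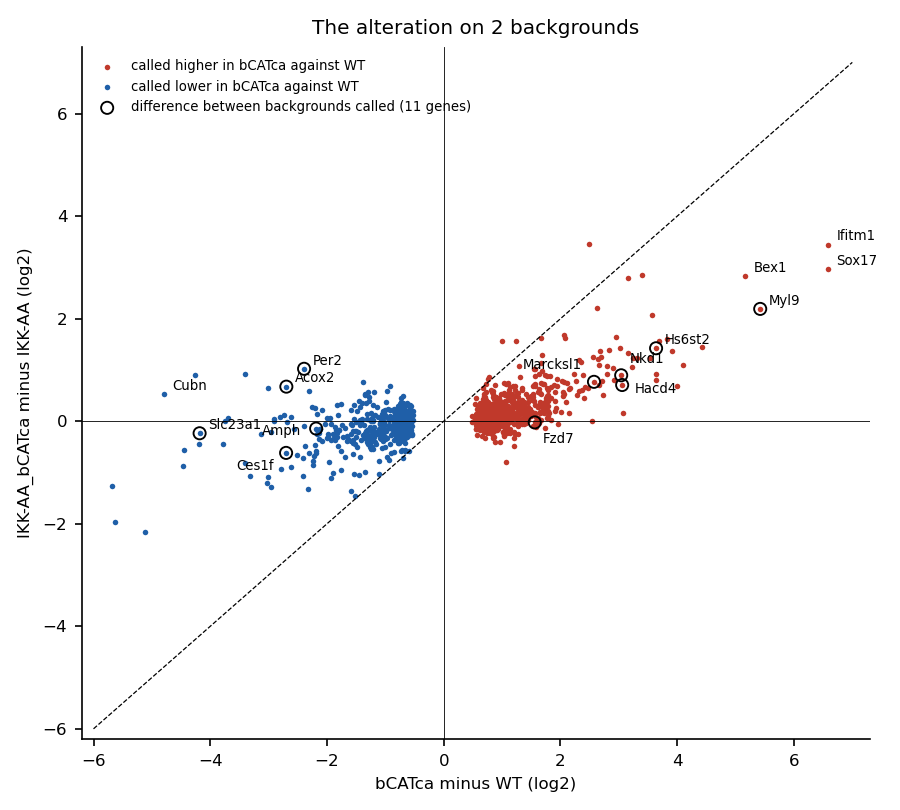
Each point is a gene called in bCATca against WT, placed by that log2 change (x axis) and by the log2 change of IKK-AA_bCATca minus IKK-AA (y axis); genes called higher are red, those called lower are blue, circles mark the 11 genes with a called difference between the backgrounds, and the dashed line is equality. Points above 0 on the x axis lie mostly between 0 and the dashed line, and those below 0 scatter around 0 on the y axis.

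The same alteration was also measured with the IKKα AA/AA genotype, on arrays whose levels do not enter the bCATca against WT change, although they share in the estimate of spread behind its calls. Of the 711 genes that rose, 581 (81.7%) were higher in IKK-AA_bCATca than in IKK-AA, and of the 440 that fell, 282 (64.1%) were lower, against 54.5% with the same sign among genes not called. All 15 largest increases and 10 of the 15 largest decreases had the same sign. These genes were chosen by their change in bCATca against WT, and sizes were smaller here: the median changes were 0.17 and -0.11, and 7 genes were called in IKK-AA_bCATca against IKK-AA (0.0565% of those tested), of which 6 were higher (0.0484%). The IKK-AA arrays, which carry no stabilised β-catenin, already stood apart from WT in the genes that fell, at medians of -0.56 on replicate 1 and -0.26 on replicate 2, and in those that rose, at 0.36 and 0.20. Ifitm1 read 4.69 and 3.99 in IKK-AA and 7.22 and 8.36 in IKK-AA_bCATca, and Sox17 3.20 and 4.02 against 5.96 and 7.20. Cubn, the intrinsic factor receptor for vitamin B12, fell by 4.80 in bCATca against WT, yet read 3.83 and 7.57 in IKK-AA and 5.61 and 6.84 in IKK-AA_bCATca.

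The difference between the backgrounds was tested by the interaction term of the model, and 11 genes were called, 0.0888% of those tested. Myl9, Hs6st2, Nkd1, Hacd4, Marcksl1 and Fzd7 rose in bCATca against WT, and their change in IKK-AA_bCATca against IKK-AA differed from that by -3.23, -2.21, -2.14, -2.35, -1.81 and -1.58. Slc23a1, Per2, Acox2, Ces1f and Amph fell in bCATca against WT, and their change in IKK-AA_bCATca against IKK-AA was higher than that by 3.95, 3.42, 3.37, 2.08 and 2.04. Hacd4, an enzyme of very long chain fatty acid elongation, read 4.26 and 4.22 in WT, 7.22 and 7.37 in bCATca, 4.38 and 4.62 in IKK-AA and 5.08 and 5.34 in IKK-AA_bCATca. Per2, a repressor of the circadian clock, had group means of 6.96 in WT, 4.56 in bCATca, 5.75 in IKK-AA and 6.77 in IKK-AA_bCATca. Amph, the membrane-bending protein amphiphysin, had a mean of 4.63 in WT and was under the guide on all arrays of the other 3 groups. With WT replicate 1, bCATca replicate 1 or bCATca replicate 2 left out, limma called none (1518, 1901 and 1476 genes at an unadjusted p under 0.05), and the count was 234 without IKK-AA replicate 2.

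The calls as a whole depended on the arrays. Leaving out WT replicate 1 gave 273 calls and leaving out WT replicate 2 gave 243. Leaving out bCATca replicate 1 gave 724 and leaving out bCATca replicate 2 gave 223. With 1 array left of a group, that array is assumed to vary like the other groups. The count was 1885 without either IKK-AA array and 699 without either IKK-AA_bCATca array. In all 8 fits 169 of the 1151 genes were called, 123 higher and 46 lower.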

How the data were processed

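RNA of 8 samples was hybridised to Affymetrix arrays. The deposited values are linear intensities, processed by the authors with RMA in affy per the submitters' processing notes, with versions not given; log2 of the deposited intensities was taken, with no floor. Of 22690 probe sets, 20380 had a single symbol in the platform annotation, and symbols were updated through Entrez IDs. A gene was represented by its brightest probe set over all 8 arrays. Of 464 called genes with more than 1 probe set, 368 had all probe sets in 1 direction. A linear model with 4 group means was fitted with limma 3.58.1 (R 4.3.3), moderated with eBayes, and p-values were adjusted by Benjamini-Hochberg over 12393 genes. On simulated data 87 of 100 genes changed by 1 on the log2 scale were recovered, as were 100 of 100 changed by 3, with 12 false calls in all. The simulated noise was independent and of equal spread in all groups. In the data the standard deviation of the difference between replicates was 0.29 in WT and 0.43 in IKK-AA. The simulated counts therefore do not rate the calls made here. Named genes were the 15 largest changes each way, up to 6 called members per list, switches, neighbour runs, and the largest replicate gaps, interaction terms and levels. The 15 largest changes were taken from called genes whose WT and bCATca arrays did not overlap. The members and lists were chosen with earlier results of these data known. Alternatives were other normalisations, filters, offsets, probe summaries, error models, the replicate block and leaving out each array. The labels do not say that arrays are separate animals, so each p-value reflects only how these samples vary, which may be technical outside WT. The WT arrays differed in Xist, and 2 arrays per group limit precision.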

Additional observations from a re-analysis of the deposited data

Results flagged for a closer look

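For 11 genes the change with stabilised β-catenin differed between the 2 backgrounds by the interaction term of the limma model, given here as the change in IKK-AA_bCATca against IKK-AA minus that in bCATca against WT. Among genes that rose in bCATca the difference was -3.23 for Myl9 (adjusted p = 0.0166), -2.35 for Hacd4, -2.21 for Hs6st2, -2.14 for Nkd1, -1.81 for Marcksl1 and -1.58 for Fzd7 (adjusted p = 0.0495). Among genes that fell it was 3.95 for Slc23a1, 3.42 for Per2, 3.37 for Acox2, 2.08 for Ces1f and 2.04 for Amph. Group means of Fzd7, a Wnt receptor, were 5.57 in WT, 7.13 in bCATca, 6.64 in IKK-AA and 6.62 in IKK-AA_bCATca, and those of Slc23a1 were 7.77, 3.58, 6.90 and 6.67.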

How the results depend on the processing

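Of 1151 genes called in bCATca against WT (711 higher, 440 lower), 701 were called with the replicate number as a block (453 higher, 248 lower). The deviations of same-numbered arrays correlated over genes at -0.19 for WT and bCATca, 0.23 for WT and IKK-AA, -0.62 for IKK-AA and bCATca, and between -0.06 and -0.03 for the pairs with IKK-AA_bCATca, so the numbers were not taken to pair the samples. With each array left out in turn the counts ranged from 223 to 1885, from 165 to 1133 higher and from 58 to 752 lower. For IKK-AA_bCATca against IKK-AA, 7 genes were called by limma. The count was 4 with cyclic loess, 1 with the mean of probe sets, and 0 with genes above the median level, with 16 added before the log, with quantile normalisation and with the replicate block (355, 837, 863 and 741 at an unadjusted p under 0.05); it ranged from 0 to 159 with an array left out. The interaction called 11 genes, 73 with trended and robust variances, 45 among genes above the median level, 7 with 16 added and 6 with the replicate block, and from 0 to 234 with an array left out. The cause of these shifts was not tested. Of 4168 values of 267 named genes under these alternatives, 3044 kept the call, 1124 lost it and 0 reversed.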

Other observations

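Of 8 nucleolar proteins of the Nop family, which build ribosomes, 8 had changes above 0 with a median of 0.57, and 3 were called higher. Of 9 glucuronosyltransferases 3 were called lower and 9 were below 0, and of 18 hydroxysteroid dehydrogenases 3 were called lower and 14 were below 0. Of 48 proteasome genes 47 had changes above 0, with a median of 0.31, and 1 was called higher. Of 28 DEAD-box helicases, which remodel RNA, 24 were above 0 with a median of 0.41, and of 24 RNA polymerase subunits 22 were, with a median of 0.39 and 2 called higher. Of 36 ABC transporters 27 were below 0 with a median of -0.18, and 3 were called lower and 1 higher. Of 17 cadherins none was called by limma, with 1 higher and 2 lower at an unadjusted p under 0.05.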
